A study of Mus musculus with 16 samples.

Results

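The 10 genes of the heat shock response and of protein folding followed here through liver regeneration were Hspa1b, Hspa8, Hsp90aa1, Hsph1, Dnajb1, Hspb1, Hspd1, Hspe1, Bag3 and Hsf1. They were chosen by name, and each was read from the probe set annotated to it alone with the highest mean over 16 arrays. Hsf1 matched no such probe set, so 9 of the 10 listed genes were measured, all 9 among the 13577 genes tested. The livers came from mice at days 0, 2, 7 and 14 after partial hepatectomy, an operation that removes part of the liver and lets the remainder grow back. All mice were of the 129SV/C57BL/6 background with the genotype Metff/ff:ERCre+/+, that is, a Met gene flanked by recombination sites together with an inducible Cre. In the MET_KO arm, exon 16 of Met, the gene of the hepatocyte growth factor receptor, had been deleted with tamoxifen, and MET_FLOX was the arm without that deletion. Canertinib, which blocks receptors of the EGFR family, was fed to the MET_FLOX_canertinib and MET_KO_canertinib arms with an aim of 80 mg/kg. Each of the 4 arms had 1 array on each of the 4 days. Whether an array holds 1 animal or a pool, and the age of the mice, no source used here states. Nor does one say which promoter drives the Cre. The p-values therefore measure the spread between arrays after arm and day are fitted.

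Heat shock proteins are chaperones that hold, refold or pass on unfolded proteins. HSP70 proteins bind exposed stretches of a client with the help of J-domain partners such as DNAJB1, and nucleotide exchange factors such as HSPH1 and BAG3 make them let go. HSP90 then matures selected clients, many of them kinases and receptors, while HSPD1 and HSPE1 form the folding chamber of the mitochondrial matrix. HSPB1 is a small heat shock protein that keeps unfolded proteins soluble. HSF1 is the transcription factor that switches on the inducible members when unfolded protein accumulates, and it binds DNA at inverted repeats of the 3 letters GAA.

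The upstream sequences show where those letters lie. RefSeq promoter windows (build GRCm38.p6) of 250 bases before to 50 after a start site were at hand for 7 of the genes. Both arrangements of the inverted repeat, GAANNTTC and TTCNNGAA, were searched, and each reads the same on both strands. At least one of them lay in the windows of 6 of these 7 genes, Hspa1b, Hsph1, Hspb1, Hspd1, Hspe1 and Bag3, against 17% of 27025 genes with a window. By windows, GAANNTTC was present in 7.86% and TTCNNGAA in 8.52% of 32851. A run of 3 alternating units, the form that a trimer of HSF1 covers, was present in the windows of Hspd1, Hspe1 and Hsph1 and in 0.603% of all windows. The Dnajb1 windows held neither arrangement, which says only that these letters are not in them. Printed here are the upstream bases of the inducible Hspa1b, of Hsph1 and Hspb1, and the stretch shared by Hspd1 and Hspe1, with the matched letters in capitals.
Hspa1b, chr17:34959239-34959488, minus strand: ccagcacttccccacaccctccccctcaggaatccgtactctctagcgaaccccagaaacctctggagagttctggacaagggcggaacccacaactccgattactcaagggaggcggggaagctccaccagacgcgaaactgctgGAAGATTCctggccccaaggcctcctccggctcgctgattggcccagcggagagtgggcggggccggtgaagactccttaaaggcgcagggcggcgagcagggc
Hsph1, chr5:149636337-149636586, minus strand: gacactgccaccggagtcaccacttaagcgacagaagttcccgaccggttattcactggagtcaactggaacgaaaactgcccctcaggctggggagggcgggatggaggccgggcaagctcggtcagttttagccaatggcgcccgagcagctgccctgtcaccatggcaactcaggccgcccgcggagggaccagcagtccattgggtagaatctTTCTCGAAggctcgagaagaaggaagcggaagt
Hspb1, chr5:135887669-135887918, plus strand: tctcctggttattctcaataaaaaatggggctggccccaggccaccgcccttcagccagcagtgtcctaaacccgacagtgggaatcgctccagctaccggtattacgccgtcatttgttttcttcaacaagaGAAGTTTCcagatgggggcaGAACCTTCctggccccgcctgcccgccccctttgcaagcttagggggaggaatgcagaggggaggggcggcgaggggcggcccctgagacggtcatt
Hspd1 to Hspe1, chr1:55087933-55088147, plus strand: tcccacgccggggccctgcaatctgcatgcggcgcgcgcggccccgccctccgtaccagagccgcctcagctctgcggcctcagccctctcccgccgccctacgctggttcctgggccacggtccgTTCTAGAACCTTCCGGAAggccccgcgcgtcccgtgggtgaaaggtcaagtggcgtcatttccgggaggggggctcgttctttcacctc
In Hspa1b the match began 104 bases before the start site. Hspb1 held a pair of matches, beginning 117 and 97 bases upstream. Hspd1 and Hspe1 are transcribed away from each other, and 215 bases separate the Hspe1 start from the nearer Hspd1 start. An unbroken run of 18 matched bases lay in that stretch, 89 to 72 bases before Hspe1 and 127 to 144 bases before Hspd1. The 3-unit run of Hsph1 and the Bag3 match lay after the start site and are not printed. The 250 upstream bases of Hspa1b and of its neighbouring copy Hspa1a were identical at 247 positions. The transcripts of these copies are also nearly alike, so their signals cannot be fully told apart on an array.

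A few facts of the 16 arrays bear on every value below. The values are MAS5 signals, scaled so that each array has the same trimmed mean, and a level is never compared between probe sets. The array medians formed a low set of 6 arrays (156.4 to 188.7), namely days 0, 2 and 7 of MET_FLOX and of MET_KO, and the 10 others made up the high set (244 to 265). All 8 canertinib arrays lie in the high set, so canertinib and array set can be separated only at day 14. The ratio of the 3' to the 5' Gapdh control probe set, a measure of RNA integrity and labelling, was 0.95 to 2.24 with canertinib and 0.765 to 0.869 without it. All 8 hepatocyte markers were measured, and their summed signal was 164364 to 413744 without canertinib and 320539 to 589237 with it. Neutrophil markers, 6 of 8 measured, summed to 1693 to 6396 on 14 arrays and to 12790 and 45324 in MET_KO_canertinib at days 2 and 14. Kupffer cell and macrophage markers, 8 of 8 measured, summed to 14510, 9249, 7316 and 11158 at day 0 and to 23500, 21109, 33725 and 8162 at day 7 in MET_FLOX, MET_KO, MET_FLOX_canertinib and MET_KO_canertinib. Lymphocyte markers, 6 of 8 measured, summed to 1370 to 2104 on the low set and 3504 to 5301 on the high set. The part of these in the results was not tested. Met itself gave 1041 to 1962 in MET_FLOX and 1011 to 2066 in MET_KO. No source used here places its probe set relative to that exon, so it does not check the deletion. In bulk tissue, fewer cells of a type and less RNA per cell cannot be told apart.

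Hspa1b, the stress-inducible HSP70, had its highest signal at day 7 in every arm. MET_FLOX gave 883, 1092, 5192 and 1118 at days 0, 2, 7 and 14, and MET_KO gave 768, 1787, 7946 and 509. MET_FLOX_canertinib gave 768, 579, 2151 and 695, and MET_KO_canertinib gave 531, 1370, 1796 and 414. Without canertinib the day 7 arrays thus stood far above the other days, and with canertinib the peak was lower, with day 7 of MET_KO_canertinib not far above its day 2. Day 7 stood above day 0 by 5.79-fold in MET_FLOX and 10.2-fold in MET_KO, and by 2.76-fold and 3.31-fold in the same genotypes with canertinib. The 4 signals of day 7 (1796 to 7946) did not overlap those of day 0 (531 to 883) or day 14 (414 to 1118), and the share of all genes like this is not given here. Only 0.354% of the genes tested were highest at day 7 in all 4 arms, and Hspa1b was the 1 of the 9 measured genes among them.

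Over the 4 arms the day 7 minus day 0 difference of Hspa1b was 2.27 on the log2(signal + 16) scale (SE 0.36), a 4.82-fold difference. It was rank 2 of 13577 genes by p in that comparison and rank 11 by the size of the positive difference, but the adjusted p of 0.128 missed the threshold of 0.05 used throughout. Without the MET_KO_canertinib array of day 2 or of day 7 the adjusted p was 0.0413 or 0.0433, and over all refits with 1 array left out the difference ranged from 1.93 to 2.51. For every arm, days 0 and 7 fall within one array set. The other 2 Hspa1b probe sets also peaked at day 7 in 4 of 4 arms, with differences of 2.22 (SE 0.42) and 1.81 (SE 0.38). Hspa1a, the near-identical copy, was highest at day 7 in 3 arms, at 487 in MET_FLOX, 571 in MET_KO and 246 in MET_KO_canertinib, while in MET_FLOX_canertinib day 0 was highest, at 108 against 72 at day 7. It lay above its array's median on 3 arrays alone and was not tested.

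**Figure D1:**
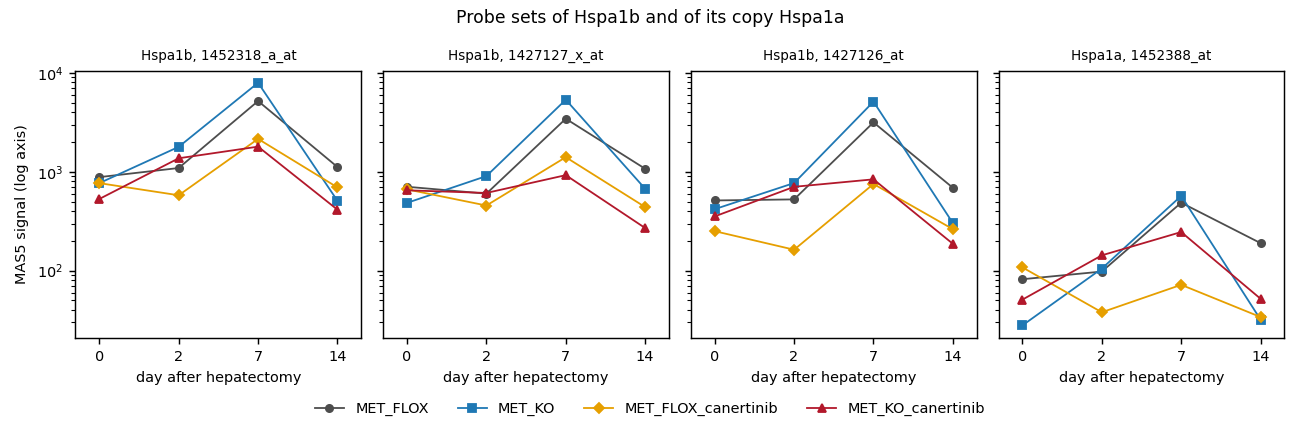
MAS5 signal (log axis) of the 3 probe sets annotated to Hspa1b and the 1 annotated to Hspa1a against the day after partial hepatectomy, 1 point per array and 1 line per arm. Day 7 is the highest day of every arm in the 3 Hspa1b panels, up to 7946 in MET_KO in the first, and the arms without canertinib (circles and squares) reach the higher peaks.

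In the probe set used, Hspa8, the constitutive HSP70 of the cytosol, moved within a narrower range, from 8748 to 17990. MET_FLOX gave 14678, 17682, 14573 and 11714, and MET_KO gave 10002, 17990, 15745 and 8905. MET_FLOX_canertinib gave 12292, 13821, 14879 and 8748, and MET_KO_canertinib gave 10347, 13402, 15664 and 9099. Day 14 was the lowest day in 4 of 4 arms, and the 4 arrays of day 7 agreed most closely, at 14573 to 15745. The differences from day 0 were 0.41 (SE 0.17) at day 2, 0.38 (SE 0.17) at day 7 and -0.29 (SE 0.17) at day 14, none of them called. The other Hspa8 probe sets ranged from 4830 to 19245, from 971 to 15869 and from 226 to 957. Their day 7 arrays agreed less closely.

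Hsph1, the HSP110 that recharges HSP70, was lowest at day 14 in 4 of 4 arms. MET_FLOX gave 1429, 1304, 1396 and 710, and MET_KO gave 1041, 1424, 1538 and 467. MET_FLOX_canertinib gave 764, 1096, 1593 and 682, and MET_KO_canertinib gave 1109, 1062, 1759 and 338. All 4 arrays of day 14 (338 to 710) lay below all 12 of the other days (764 to 1759). Of all genes, 1.62% were lowest at day 14 in all 4 arms, and the share without overlap is not given here. MET_FLOX and MET_KO also change array set at day 14. The day 14 minus day 0 difference was -0.99 (SE 0.23, adjusted p = 0.115) and of the 16 refits with 1 array left out it was called in the one without the MET_FLOX_canertinib array of day 14, at -1.17 (adjusted p = 0.0347). Within the canertinib arms, whose arrays all lie in the high set, the difference was -0.16 in MET_FLOX_canertinib and -1.67 in MET_KO_canertinib.

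Dnajb1, the inducible J-domain partner of HSP70, ranged from 601 to 1840. It was highest at day 2 in 3 arms and lowest at day 14 in 3 arms. Its widest course was in MET_KO, with 762, 1840, 1588 and 644, and its narrowest in MET_FLOX, with 1222, 1441, 1263 and 1228. MET_FLOX_canertinib gave 943, 1212, 943 and 601 and MET_KO_canertinib 926, 873, 1026 and 747. The day 2 minus day 0 difference of 0.44 (SE 0.23, adjusted p = 0.532) was not called. By the other Dnajb1 probe set day 14 was lowest in 1 arm. That set gave 1136, 771, 936 and 1250 in MET_FLOX, with day 2 the lowest. In MET_KO and MET_FLOX_canertinib it was highest at day 2.

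Bag3, a co-chaperone that steers HSP70 clients to autophagy, was the one measured gene called higher in the canertinib arms. MET_FLOX gave 659, 1019, 1082 and 1272, and MET_KO gave 929, 1071, 1550 and 1307. The signals of MET_FLOX_canertinib were 1125, 1670, 2067 and 1543, those of MET_KO_canertinib 1905, 1734, 1472 and 1672. Day 0 was the lowest day in 3 arms and the highest in MET_KO_canertinib. The groups overlapped, with 1125 as the lowest canertinib signal and 1550 as the highest without it.

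Hsp90aa1, the inducible cytosolic HSP90, had its lowest signal at day 14 in 4 of 4 arms. MET_FLOX gave 6680, 14223, 9888 and 3376, and MET_KO gave 6734, 10591, 8746 and 2365. MET_FLOX_canertinib gave 3897, 5893, 4348 and 2676, and MET_KO_canertinib gave 4947, 4599, 6303 and 3388. Day 2 was highest in 3 arms, and at days 0, 2 and 7 every canertinib signal lay below both signals without it, while at day 14 the arms overlapped. Its signals also followed the array sets without overlap, at 6680 to 14223 on the 6 low-set arrays and 2365 to 6303 on the other 10, as 15.9% of all genes did. The day 14 minus day 0 difference was -0.89 (SE 0.24, adjusted p = 0.143), -0.98 and -1.50 in MET_FLOX and MET_KO and -0.54 in each canertinib arm. With an array set term it was -0.40.

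Hspd1, the mitochondrial HSP60, was lowest at day 14 in 4 of 4 arms. Its signals of 10068 to 13942 at day 14 lay below the 15259 to 20152 of the other days. How many of all genes lie apart in this way is not given here. The day 14 minus day 0 difference was -0.40 (SE 0.17, adjusted p = 0.277). Its partner Hspe1, the HSP10 lid of the same chamber, had MET_FLOX signals of 7175, 9066, 7769 and 4915 and MET_KO signals of 8077, 7343, 5828 and 2958. MET_FLOX_canertinib gave 4010, 4182, 3046 and 4098, and MET_KO_canertinib gave 5343, 5091, 6943 and 2425. Day 14 was lowest in 3 arms, all but MET_FLOX_canertinib, where day 7 was. By the other Hspe1 probe set day 14 was lowest in 1 arm. For the probe set used, the day 14 minus day 0 difference was -0.77 (SE 0.25, adjusted p = 0.187). Without the MET_FLOX_canertinib array of day 14 it was called, at -1.07 (adjusted p = 0.0334).

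For Hspb1, the small heat shock protein HSP27, the course depended on the probe set. In the one used the signal was highest at day 14 in 3 arms, 3624 in MET_FLOX, 1976 in MET_KO and 2720 in MET_FLOX_canertinib. In MET_KO_canertinib day 14 was the lowest, with 2499, 3128, 1916 and 1248 over the 4 days. The other probe set was lowest at day 14 in 4 of 4 arms. In the one used, MET_KO lay below MET_FLOX on 4 of 4 days, by -0.59 (SE 0.28, adjusted p = 1).

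**Figure D2:**
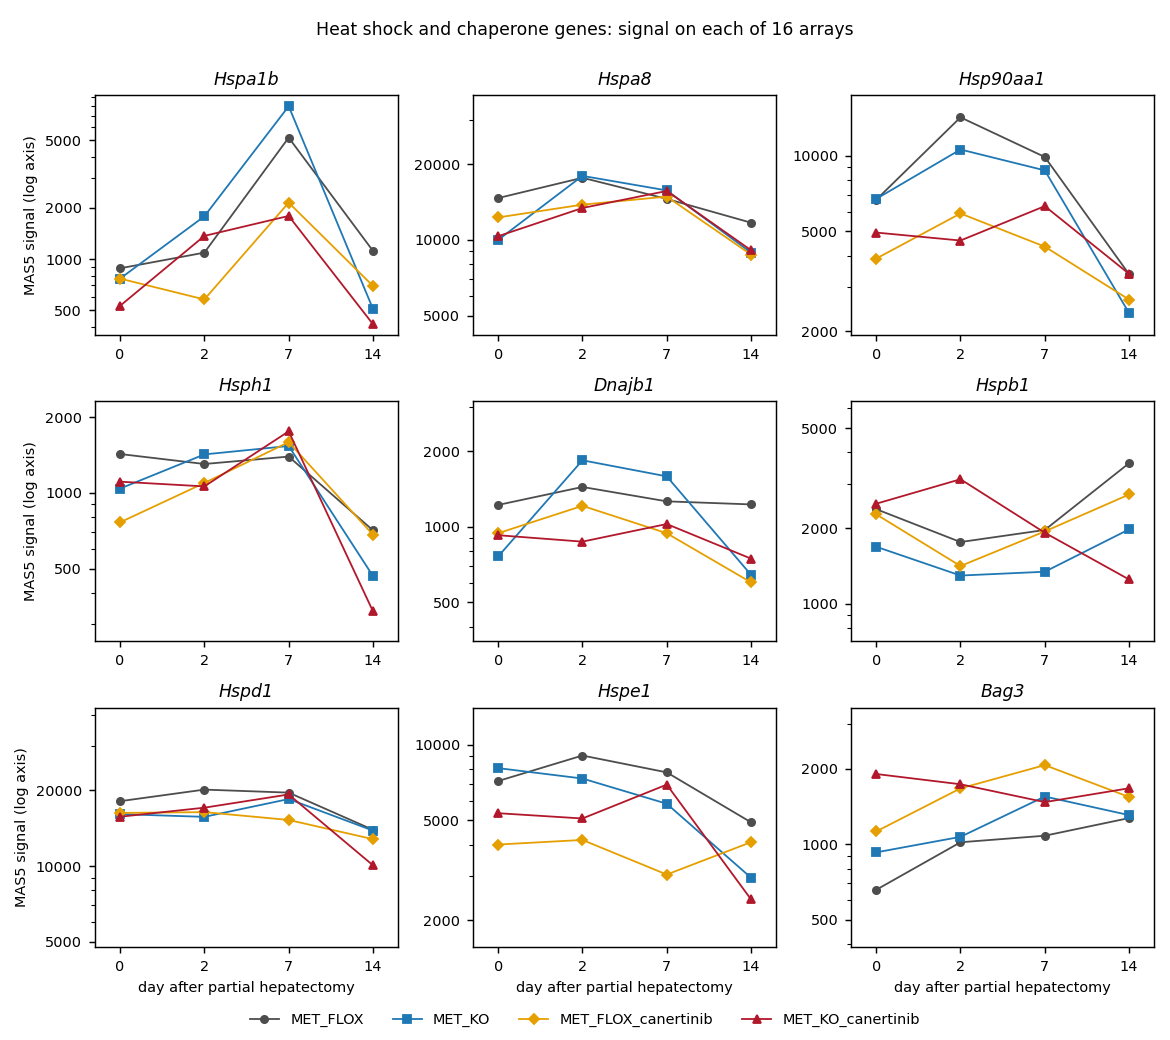
MAS5 signal (log axis) of the 9 measured genes against the day after partial hepatectomy, 1 point per array and 1 line per arm; days are evenly spaced and axis ranges differ between panels. Hspa1b peaks at day 7 in all 4 arms, Hspa8, Hsp90aa1, Hsph1 and Hspd1 are lowest at day 14 in all 4, and Bag3 is mostly higher in the canertinib arms (diamonds and triangles).

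Across the days no measured gene, read from the probe set used, passed the test, which asks what the time after the operation changes. Another Hspb1 probe set was called lower at day 14 than at day 0, with its values given below. In limma, with Benjamini-Hochberg adjustment over all 13577 genes, 0 of 9 were called at day 2 minus day 0, where 0.412% of all genes were. The count was 0 of 9 at day 7, where 0.00737% (1 gene) was called, and 0 of 9 at day 14, where 0.081% were. At an unadjusted p under 0.05 there were 2, 4 and 4 of the 9, beside 1428, 664 and 2238 of all 13577 genes. The medians of the 9 differences were 0.31, 0.36 and -0.29, beside medians of -0.06, -0.01 and 0.105 over all genes. The 4 genes with day 14 as the lowest day in all arms, Hspa8, Hsp90aa1, Hsph1 and Hspd1, stand beside 1.62% of all genes with that order. That order depended on the probe set. Other probe sets of Hspa8 were lowest at day 14 in 3, 3 and 2 arms. Those of Hsp90aa1 were so in 4, 3, 1 and 0 arms, the last lying under the array median on every array. The other Hsph1 probe set was lowest at day 14 in 4 arms. Day 14 is also where MET_FLOX and MET_KO change array set, so for these arms day and set cannot be told apart.

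With canertinib, 3 of the 9 measured genes fell and 1 rose. Hspa1b, the inducible HSP70, differed by -0.79 (SE 0.26, 0.576-fold, adjusted p = 0.0291). Hsp90aa1 differed by -0.65 (SE 0.17, 0.639-fold, adjusted p = 0.0127) and Hspe1 by -0.59 (SE 0.18, 0.665-fold, adjusted p = 0.0205). Bag3 was higher by 0.58 (SE 0.14, 1.5-fold, adjusted p = 0.00854). The direction held on 4 of 4 days for Hspa1b, Hspe1 and Bag3 and on 3 for Hsp90aa1. The 4 calls among 9 stand beside 34.6% of all genes called, the 3 lower beside 10.6% and the 1 higher beside 24%. The median of the 9 was -0.20, against 0.14 over all genes. The other 5 were not called: Dnajb1 -0.41 (SE 0.16, adjusted p = 0.0632), Hsph1 -0.20, Hspa8 -0.17, Hspd1 -0.16 and Hspb1 0.11.

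The day-by-day values show where the canertinib differences lie. For Hspa1b they were -0.36, -0.64, -1.70 and -0.48 at days 0, 2, 7 and 14, largest at the day 7 peak. For Hsp90aa1 they were -0.61, -1.23, -0.83 and 0.09, and for Hspe1 -0.72, -0.82, -0.55 and -0.27. Bag3 had 0.89, 0.70, 0.43 and 0.31, smaller on each later day. Over the 8 arrays of each side the Hspa1b signals had a low, median and high of 414, 731 and 2151 with canertinib and of 509, 1105 and 7946 without it. For all 9 genes the signals of both sides overlapped, while 1.2% of all genes had none.

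Day 14 is the one day on which all 4 arms lie in the same array set. On that day the Gapdh ratio was 2.24 in MET_FLOX_canertinib, 1.13 in MET_KO_canertinib and 0.811 in both MET_FLOX and MET_KO. The neutrophil sum of MET_KO_canertinib was 45324 then, the highest of all arrays. The part of these in the day 14 values was not tested. With the set as a term, 0 of the 9 genes were called and 0.11% of all genes were. Hsp90aa1 then differed by 0.09 (SE 0.26), Hspa1b by -0.48 (SE 0.52), Hspe1 by -0.27 (SE 0.34) and Bag3 by 0.31 (SE 0.27). At days 0, 2 and 7 drug and set cannot be told apart. With each array centred on its median, which moves the median difference of all genes from 0.144 to -0.236, 7 genes were lower and 0 higher, and Bag3 was 0.20 (adjusted p = 0.279). The Hspa1b call was lost, with adjusted p of 0.0562 to 0.0703, without any one of the day 7 arrays of the 4 arms, the day 14 array of MET_FLOX, or the day 2 array of MET_KO or MET_FLOX_canertinib. Without all of day 7 the Hspa1b difference was -0.49 (adjusted p = 0.224).

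**Figure D3:**
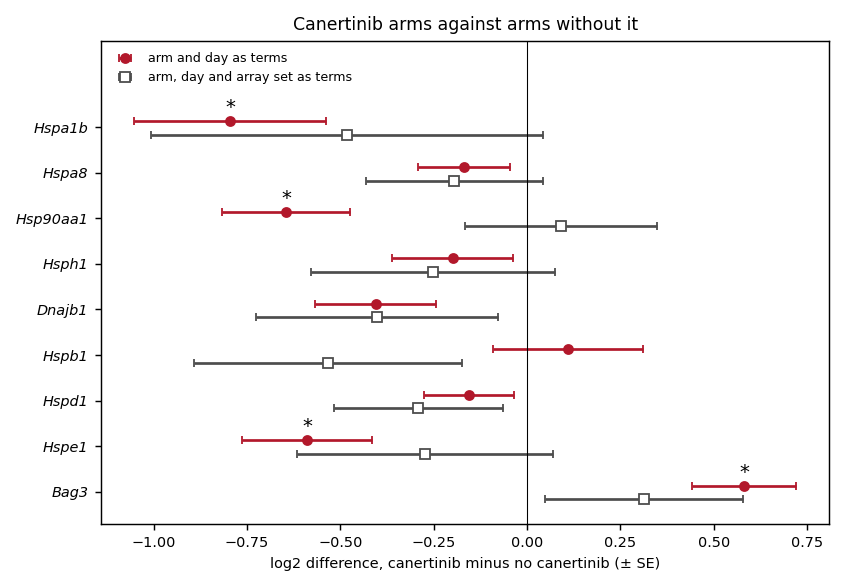
Canertinib difference in log2(signal + 16), 8 arrays against 8, for the 9 measured genes, with standard errors, from the fit with arm and day as terms (filled circles) and with the array set added (open squares). Asterisks mark the 4 called genes; once the array set is added the errors widen, none is called and Hsp90aa1 moves from -0.65 to 0.09.

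The probe sets of a gene did not always tell the same story. The 3 Hspa1b probe sets were all lower with canertinib, by -0.79, -1.20 and -0.87, each called. For Hsp90aa1 the probe set used and another were lower (-0.65 and -0.67, both called), one was at 0.05, and a dim one, with signals of 84 to 453, was higher by 0.78 (SE 0.21, adjusted p = 0.0131). The remaining Hsp90aa1 probe set lay under the array median on every array. For Hspa8 the brightest probe set differed by -0.17, but another by -1.55 (SE 0.37, adjusted p = 0.00854). That probe set gave 4687 to 15869 on the 6 arrays of the low set and 971 to 4097 on the other 10, day 14 of MET_FLOX and MET_KO (2397 and 971) included. Its pattern thus followed the array sets without overlap.

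Hspb1 and Hsph1 also had another probe set that was called. For Hspb1 it was lower with canertinib by -0.87 (SE 0.24, adjusted p = 0.015), against 0.11 for the set used. At day 14 it was lower than at day 0 by -2.14 (SE 0.34, adjusted p = 0.0328), against 0.02. It was lowest at day 14 in 4 of 4 arms, at 487, 405, 118 and 74, where the set used was highest in 3. The 118 and 74, from MET_FLOX_canertinib and MET_KO_canertinib, lay under their array medians of 248 and 265. The 487 and 405 are from MET_FLOX and MET_KO, which change array set at day 14. For Hsph1 the other probe set differed by -0.64 (SE 0.17, adjusted p = 0.0144) with canertinib. The other Hspe1 probe set differed by -0.26 (SE 0.16) and the other Dnajb1 probe set by 0.12 (SE 0.16), neither called. No source used here places these probe sets along the transcripts, and the part of the Gapdh ratio in their disagreement was not tested.

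**Figure D4:**
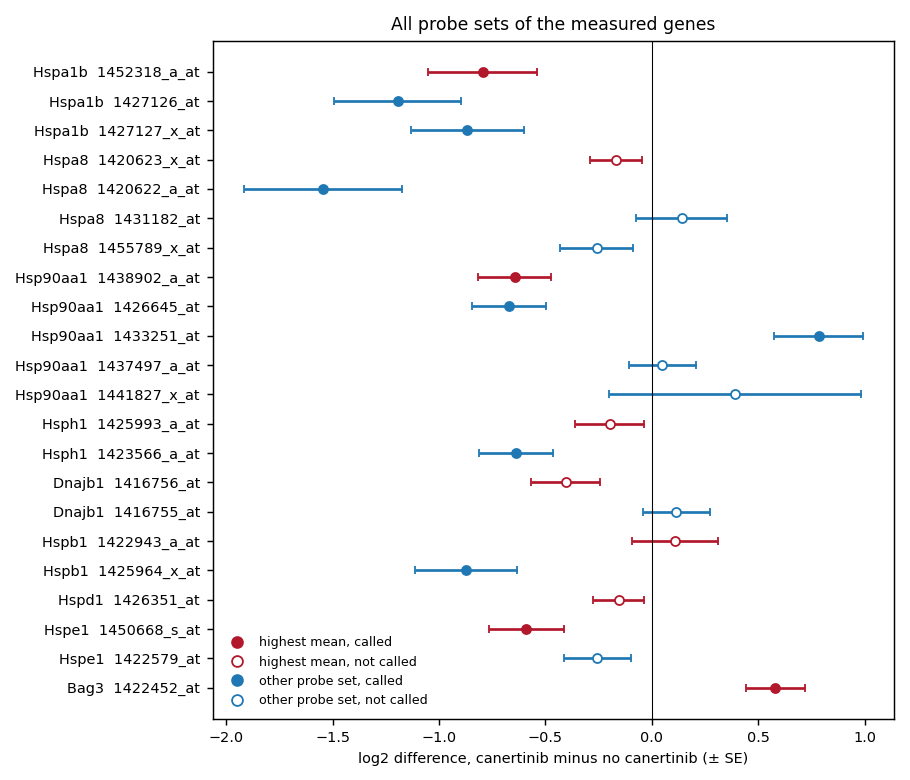
Canertinib difference in log2(signal + 16), 8 arrays against 8, with standard errors, for all 22 probe sets of the 9 measured genes. Filled points are called; red marks the probe set with the highest mean of its gene. The 3 Hspa1b probe sets lie on the same side, whereas those of Hsp90aa1 run from -0.67 to 0.78 and those of Hspa8 from -1.55 to 0.14.

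In the comparisons of single arms, which ask what blocking each receptor alone or both does, few members passed. MET_FLOX_canertinib minus MET_FLOX called 2 of 9, both lower, where 6.79% of all genes were called and 2.7% were called lower. Hsp90aa1 differed by -0.89 (SE 0.24, adjusted p = 0.0436) and Hspe1 by -0.89 (SE 0.25, adjusted p = 0.0462), each lower on 4 of 4 days. Both calls lay near the threshold, and with the array set added both were lost, at -0.15 (adjusted p = 0.899) and -0.57 (adjusted p = 0.634). Left out 1 at a time, 10 of the 16 arrays ended the Hsp90aa1 call and 12 the Hspe1 call, among them every array of MET_FLOX or MET_FLOX_canertinib at days 0, 2 and 7. The differences then ranged from -1.03 to -0.73 and from -1.19 to -0.70, with adjusted p up to 0.163. Without the day 14 array of MET_FLOX_canertinib or of MET_KO_canertinib 3 were called, Bag3 with them.

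MET_KO_canertinib minus MET_KO called 0 of 9 beside 8.34% of all genes. Of the 9, 2 had an unadjusted p under 0.05, beside 4350 of all 13577 genes. Hspa1b had -0.83 (SE 0.36, adjusted p = 0.134), lower on 4 of 4 days and by -2.14 at day 7. Without the day 14 array of MET_KO it was called, and without that of MET_KO_canertinib Hspb1 was. MET_KO_canertinib minus MET_FLOX, the arm with both receptors targeted against the arm with neither, called 0 of 9 beside 2.91% of all genes. Of the 9, 5 had an unadjusted p under 0.05, beside 3793 of all 13577 genes. Bag3 came nearest to a call, at 0.77 (SE 0.20, adjusted p = 0.0505), higher on 4 of 4 days. Without the day 14 array of MET_FLOX, MET_KO, MET_FLOX_canertinib or MET_KO_canertinib it was called, with adjusted p of 0.0457, 0.0496, 0.0409 and 0.0387. The last of these also called Hsp90aa1. This comparison shares the MET_FLOX arrays with the first.

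Deletion of Met exon 16 called none of the 9 genes. The knockout arms minus the flox arms called 0 of 9 beside 0% of all genes, MET_KO minus MET_FLOX 0 of 9 beside 0%, and MET_KO_canertinib minus MET_FLOX_canertinib 0 of 9 beside 0%. None of the 9 had an unadjusted p under 0.05 in these. The genotype by canertinib interaction called 0 of 9 beside 0.0147% of all genes. The 9 genotype differences ran from -0.28 for Hspb1 (SE 0.20) to 0.19 for Bag3 (SE 0.14), and the largest standard error was 0.26, for Hspa1b. These comparisons are balanced over the array sets.

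The wider folding machinery was read from 8 lists of cytosolic and mitochondrial chaperones, with 75 of 83 listed genes tested. With canertinib 22 of the 75 were called lower and 7 higher, 38.7% in all beside 34.6% of all genes, and the median was -0.23 against 0.14. Over all genes 10.6% were called lower and 24% higher, and the counts of each list below stand beside these shares. Once the array set was added as a term, 0 of the 75 were called. The signals of 19 of the 75 did not overlap between the array sets, beside 15.9% of all genes. Of the 29 called, 17 were among them, day 14 of MET_FLOX and MET_KO siding with the canertinib arrays. For every gene, split or not, canertinib and array set cannot be told apart at days 0, 2 and 7.

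The TRiC chaperonin, which folds actin and tubulin, and prefoldin, which delivers them, had 7 of 14 genes lower and 0 higher. Cct8, a TRiC subunit, differed by -0.97 (SE 0.18), Vbp1, a prefoldin subunit, by -0.92 (SE 0.22) and Pfdn1, another, by -0.77 (SE 0.18). All 3 are among the 6 of these 7 that split by array set, Cct8 with 2221 to 4037 on the low set and 948 to 1426 on the rest. The median of the list went from -0.30 to -0.04 with the set term. Mitochondrial chaperones and proteases had 6 of 11 lower and 0 higher. Clpx, the unfoldase of the matrix protease, differed by -1.42 (SE 0.22), Hspa9, the mitochondrial HSP70, by -0.83 (SE 0.14) and Yme1l1, an inner membrane protease, by -0.68 (SE 0.17). Clpx gave 5831, 2151, 5962 and 1658 in MET_FLOX, 8493, 2377, 7876 and 2094 in MET_KO and 1005 to 1858 over the 8 canertinib arrays. These 3 genes followed the array sets without overlap, Hspa9 with 5709 to 8423 on the low set and 3096 to 4454 on the rest. With the set term Clpx differed by -0.86, Hspa9 by -0.22 and Yme1l1 by 0.10. HSP90 and its co-chaperones had 4 of 10 lower: Cacybp by -0.59, Sugt1 by -0.48 and Cdc37, which loads kinases, by -0.40, with Ahsa1, the activator of the HSP90 ATPase, at -0.33. Of these, Cacybp split by array set.

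The remaining lists moved in both directions. HSP70 and HSP110 proteins had 1 of 5 lower, Hspa4 (-0.42), and the nucleotide exchange and partner proteins 2 of 9 lower, Bag6 (-0.82) and St13 (-0.52), both split by array set. Among J-domain proteins Dnaja4 (0.70) and Dnajb5 (0.68) were higher and Dnajb2 (-0.73) lower, of 15. Among small heat shock proteins Hspb7 (0.87) was higher, 1 of 6. Dnaja4, Dnajb5 and Hspb7 also split by array set, Hspb7 with 175 to 328 on the low set and 423 to 708 on the rest, and the median of the small heat shock list went from 0.67 to -0.04 with the set term. In the list of heat shock factors and their partners 4 of 5 were higher and 1 lower.

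Hsbp1, which encodes a small protein that binds the trimer of HSF1 and restrains it, was lower with canertinib by -1.04 (SE 0.12, adjusted p = 0.00103) on 4 of 4 days. MET_FLOX gave 3716, 3101, 3047 and 2494, and MET_KO gave 2260, 3445, 3451 and 2077. MET_FLOX_canertinib gave 1710, 1493, 1335 and 1076, and MET_KO_canertinib gave 1449, 1277, 1610 and 1302. Every canertinib signal thus lay below every signal without it, as for Sugt1 among these 75 genes. Of all genes, 1.2% likewise had signals that did not overlap. The Gapdh ratio did not overlap either, at 0.95 to 2.24 with canertinib and 0.765 to 0.869 without it. Its part in the Hsbp1 values was not tested. With an array set term, where day 14 decides, the Hsbp1 difference was -0.93 (adjusted p = 0.142). Hsf2, another heat shock factor, was higher by 0.94 (SE 0.21) and Hsf2bp, its binding protein, by 1.41 (SE 0.22). Hsf2 gave 182 to 254 on the 6 arrays of the low set and 449 to 662 on the other 10, so it followed the array sets, and its difference with the set as a term was -0.10. Hsf2bp did so too, with 80 to 223 and 308 to 717, and its difference became 0.42 (adjusted p = 0.639). The list's other higher genes were Hsf4 (0.62) and Hsf5 (0.65). Hsf4 gave 132 to 397 on the low set and 246 to 510 on the rest, and Hsf5 gave 109 to 268 and 204 to 562. Both are dim genes, with signals around the array medians of 156.4 to 265. Hsf4, Hsf5 and Ahsa1 fall outside the naming rule and were named after their values were seen.

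**Figure D5:**
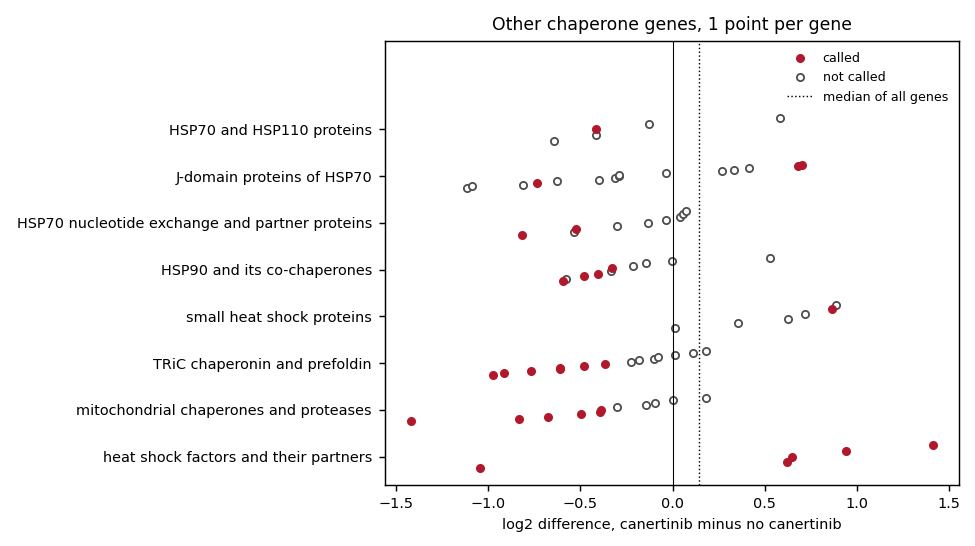
Canertinib difference in log2(signal + 16), 8 arrays against 8, for the 75 tested genes of 8 chaperone lists, 1 point per gene, filled where called; the dotted line is the median of all genes, 0.144. The TRiC, mitochondrial and HSP90 lists lie mostly to the left of it (7, 6 and 4 called lower), and the heat shock factor list splits.

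Between single arms the same 75 genes gave few calls. MET_FLOX_canertinib minus MET_FLOX called 7 lower and 1 higher, 10.7% beside 6.79% of all genes. MET_KO_canertinib minus MET_KO called 4 lower and 1 higher, 6.67% beside 8.34%. MET_KO_canertinib minus MET_FLOX called 2 lower, 2.67% beside 2.91%. Hsbp1 and Hspa9 were lower in all 3, which share arrays. Of the 75, 0 were called in the genotype and day comparisons. At day 14, 0 of 10 HSP90 co-chaperones and 0 of 11 mitochondrial genes had a difference above 0 from day 0, with medians of -0.33 and -0.35 against 0.105 over all genes. MET_FLOX and MET_KO change array set at that day. With the set term the medians were -0.39 and -0.34 against 0.00443 over all genes. The HSP90 list then still had none above 0, but mitochondrial Dnaja3 (0.28), Hspa9 (0.13) and Yme1l1 (0.04) were. Of the 75, 5 were lowest at day 14 in all arms, beside 1.62% of all genes. The ER chaperones, listed apart, had 3 of 14 lower with canertinib, Hsp90b1 (-0.71), Canx (-0.63) and Dnajc3 (-0.38), beside 10.6% of all genes. With the set term 0 were called, these differed by 0.69, -0.05 and 0.20, and the median of the 14 went from 0.03 to 0.31. At day 7 their differences from day 0 were above 0 for 14 of 14, with a median of 0.29 and 0 called. Of 10 immediate early genes, which mark acute stress and tissue handling, 0 were called in any of the 11 comparisons, and at day 7 their median was 0.39.

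Some members moved together over the 16 arrays. These correlations are descriptions after the mean of each array set was subtracted, and the arrays share arms and days. Of 36 pairs, 14 had a Pearson r above 0.5 and 5 were below 0, with a median of 0.41. The share over all gene pairs is not given here, so these counts do not set the members apart from other genes. Hspa8 and Dnajb1, an HSP70 and its J-domain partner, had 0.82 (0.95 within the 6 low-set arrays and 0.74 within the other 10). Hspa8 and Hsp90aa1 had 0.79 (0.73 and 0.81), and Hsph1 and Hspd1 0.79 (0.35 and 0.85). Hspd1 and Hspe1, which share the printed stretch, had 0.68, which was 0.16 within the low set and 0.76 within the high set. Among all genes tested, the 3 most like Hspd1 were Ahsa1 (0.90), Pebp1 (0.90) and Dnaja1 (0.88), and 2 of these are chaperone genes. Dnajb1 was among the 3 nearest to Hspa8 and Hspa8 among those to Dnajb1, whose nearest was Alas1 (0.90), the first enzyme of heme synthesis. The genes nearest to Hspa1b were Cdhr5, Atp11a and Micalcl (0.84, 0.84 and 0.83). Those nearest to Hsp90aa1, Hsph1, Hspb1, Hspe1 and Bag3 were Tmem120a, Abca3, Pus10, Papss2 and Tstd2, at 0.84 to 0.89.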

How the data were processed

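Liver total RNA (6 ug, per the labels) of 16 mouse liver samples was hybridised to expression arrays, 1 for each arm and day. The authors deposited linear MAS5 signals, an intensity for each probe set. The MAS5 version and detection calls are not given in the sources used here. Each array's mean signal, trimmed by 2% at both ends, was 500. Arrays number 1 per arm and day, which limits the precision. The log2 of the deposited signal plus 16 was taken, and fold changes on that scale understate the change of dim genes.

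Of 45101 probe sets, 64 controls were left out; 34945 were annotated to 1 gene, 932 to several and 9160 to none. Probe sets annotated to 1 gene were kept where at least 4 of 16 arrays exceeded their own median, and a gene was read from its probe set of highest mean. Tests used limma 3.58.1 in R 4.3.3, with moderated variances and an intensity trend, arm and day as terms (9 residual degrees of freedom, 8 with the array set, parted at a median of 216.35), over 11 comparisons, two-sided. A gene was called at a Benjamini-Hochberg adjusted p under 0.05. The fit was tested on simulated data.

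The members, lists and tests were chosen with earlier results of these data known. All members were named, up to 3 called genes per chaperone list (largest difference), and the 3 genes most like a member. The alternatives were other pseudocounts, scalings, filters and probe set rules, and leaving out arrays or days. Using each other probe set was added after the data were seen. Marker lists not quoted in the report gave these summed signals over the 16 arrays: endothelium 4804 to 9166, stellate cells and matrix 7354 to 17531, cholangiocytes and progenitors 677 to 1945, erythroid cells and blood 1475 to 7009, pancreatic acinar cells 2211 to 5362 and adipocytes 1163 to 2704.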

Additional observations from a re-analysis of the deposited data

Results flagged for a closer look

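In each of 36 groups, 9 genes in 4 arms of 4 arrays, the highest or lowest array was compared with the rest by its gap over the group's range. In 3 groups that share was above Dixon's critical value for 4 arrays. Chance flags about 1 in 20 groups. Each arm's arrays are 4 different days, so a single array apart from the rest is also a day apart from the rest. Hspa1b in MET_FLOX at day 7, with a signal of 5192, had a share of 0.868. Hsph1 in MET_FLOX at day 14, with 710, had 0.869. Hspe1 in MET_FLOX_canertinib at day 7, with 3046, had 0.868.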

How the results depend on the processing

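The 6 called values were refitted 180 times: 108 kept direction and call, 67 lost the call and 5 turned. Of 93 values not called, 2735 refits gave 39 calls in the same direction; the sign changed in 165, 2 of them with a call. For canertinib arms minus arms without it, 4 members were called as reported, 7 with each array centred on its median, 0 with an array set term and 2 after quantile normalization; without 1 array the count was 3 to 5. By whole days it was 1 without day 0, 0 without day 2, 1 without day 7 and 4 without day 14. For MET_FLOX_canertinib minus MET_FLOX the count of 2 became 4 with centring and 0 with no filter, quantile normalization, the array set, the mean of all probe sets or no variance trend. It was 0 to 3 without 1 array, 0 without day 0, 2 or 7, and 3 without day 14. For MET_KO_canertinib minus MET_KO the count of 0 became 1 with centring and 2 without day 14, and was 0 to 1 without 1 array. For MET_KO_canertinib minus MET_FLOX it became 1 with a pseudocount of 64 or centring and 2 without day 14, and was 0 to 2 without 1 array. Without 1 array the counts were 0 to 1 at day 7 and 0 to 2 at day 14. The called values that turned were Hsp90aa1 with canertinib, 0.091 with the array set and 0.78, 0.050 and 0.39 with other probe sets, and 0.61 in MET_FLOX_canertinib minus MET_FLOX. Those not called that turned with a call were Hspb1 with another probe set, -0.87 with canertinib and -2.14 at day 14. The cause was not tested. Arms were compared within days through the day term. The labels number no replicates, so no further block was fitted.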
